A study of Mus musculus with 12 samples.

Results

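The 8 genes described here are genes of bone resorption. Ctsk, Acp5 and Mmp9 encode enzymes of resorption. Car2, Clcn7, Ostm1, Snx10 and Plekhm1 encode proteins of acid production, chloride transport and membrane traffic. The genes were chosen by symbol, and all 8 of 8 symbols matched 1 Ensembl identifier each among the 54532 genes of the deposited table. RNA was sequenced from mouse bone-marrow-derived macrophages and from osteoclasts, the multinucleated cells that resorb bone, in 12 libraries that formed 4 groups of 3. All cells came from the marrow of wild-type mice (WT), whose age is not given, and were expanded for 4 to 5 days with CMG, a source of the macrophage growth factor M-CSF. Untreated macrophages (MA_NT) were then kept in 2% CMG alone. Untreated osteoclasts (OC_NT) were made from the same kind of macrophages with 2% CMG and RANKL for 5 to 6 days. RANKL is the cytokine that drives osteoclast formation, and RANKL and cell type were the same variable. RANKL stands at 100 ng/mL in the sample source and at 50 to 100 ng/mL in the protocol. The remaining groups (MA_LPS and OC_LPS) received lipopolysaccharide (LPS), a bacterial cell wall component, at 100 ng/mL for 3 h on day 5. Nothing in the labels says whether the 3 libraries of a group came from separate cultures or animals, so p-values measure the spread between these libraries, which may be technical.

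A resorbing osteoclast seals off a pocket of bone surface and acidifies it, which dissolves the mineral and lets secreted enzymes digest the exposed collagen. Carbonic anhydrase II (Car2) makes protons and bicarbonate from carbon dioxide and water, a vacuolar proton pump (V-ATPase) moves the protons out, and the chloride-proton exchanger ClC-7 (Clcn7) with its partner Ostm1 balances their charge. Snx10, a sorting nexin, and Plekhm1, an adaptor of late endosomes and lysosomes, act in the vesicle traffic that builds the ruffled border, and loss of Car2, Clcn7, Ostm1, Snx10 or Plekhm1 is a known cause of osteopetrosis, a disease of dense bone. Cathepsin K (Ctsk) is the main collagen-degrading protease of osteoclasts, tartrate-resistant acid phosphatase (Acp5) is their classical histochemical marker, and Mmp9 is a secreted gelatinase.

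The upstream sequences of 3 of these genes are shown because Ctsk and Acp5 were among the genes with the widest gap between the cell types, and Clcn7 held an E-box. Clcn7, and the Acp5 start site shown, were chosen after their letters were seen. Each sequence is the 250 bases before a RefSeq start site on GRCm38.p6, 5′ to 3′ on the gene's strand, and capitals mark motif matches on either strand. The searched motifs were GGAAA (the NFAT core), CACGTG and CATGTG (E-boxes that MITF and TFE factors bind), TGANTCA (AP-1) and GAGGAA (PU.1).
Ctsk, chr3:95498960-95499209, plus strand: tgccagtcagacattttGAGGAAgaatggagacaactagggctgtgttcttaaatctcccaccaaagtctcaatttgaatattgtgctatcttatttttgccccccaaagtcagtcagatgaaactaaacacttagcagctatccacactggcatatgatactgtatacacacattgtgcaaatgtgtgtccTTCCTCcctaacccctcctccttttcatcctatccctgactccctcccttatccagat
Acp5, chr9:22130599-22130848, minus strand: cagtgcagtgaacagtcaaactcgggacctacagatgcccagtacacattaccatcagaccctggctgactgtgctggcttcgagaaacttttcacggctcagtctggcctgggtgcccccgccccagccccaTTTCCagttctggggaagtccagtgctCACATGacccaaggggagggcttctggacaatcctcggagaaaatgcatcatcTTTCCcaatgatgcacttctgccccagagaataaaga
Clcn7, chr17:25133141-25133390, plus strand: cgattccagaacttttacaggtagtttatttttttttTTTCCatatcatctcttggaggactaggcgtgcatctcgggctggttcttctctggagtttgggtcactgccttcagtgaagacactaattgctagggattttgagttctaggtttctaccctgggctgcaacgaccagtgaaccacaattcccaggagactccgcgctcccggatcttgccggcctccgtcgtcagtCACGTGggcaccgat
In Ctsk the capitals are 2 GAGGAA matches, at 233 and 58 bases before the start. In Acp5 they are GGAAA at 117 and 37 bases and CATGTG at 90 bases before the start. In Clcn7 they are GGAAA at 213 bases and CACGTG at 15 bases before the start. The start of the Ctsk window was not found in a transcript of the gene, while those of the Acp5 and Clcn7 windows shown were. The Ctsk window ends at 95499209, before the annotated gene start at 95499256, so its distances hold for the RefSeq start only. RefSeq gave 11 start sites for 6 of the 8 genes; Mmp9 and Car2 had no entry. GGAAA was in 7 of those 11 windows, which belong to 3 genes and include 3 Snx10 windows that each overlap another of them, against 55.57% of all 32851 windows of that length, GAGGAA in 2 against 23.25%, and TGANTCA in 1 against 6.75%. CACGTG was in 1 of 11 against 6.02% of all windows, and CATGTG in 2 against 12.25%. GGAAA and GAGGAA can overlap. A match describes letters in a window and no binding was measured.

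Values are FPKM, fragments per kilobase of gene scaled per library, so levels of different genes below are per length. A log2 difference is the difference between group means of log2(FPKM + 1), which understates the change of genes at low FPKM. limma tested it over 11335 genes, those that reached 1 FPKM in 3 or more libraries, and a gene was called at an adjusted p under 0.05. For 1 gene the spread is shared over all 4 groups, so low and noisy macrophage values of Ctsk and Acp5 widen their osteoclast intervals. Libraries held 15651759 to 20281444 reads recovered from the FPKM. All 5 LPS-response genes checked (Tnf, Il6, Cxcl10, Il1b and Nfkbia) were called higher with LPS in both cell types, where 36.8% of all tested genes were in macrophages and 11.1% in osteoclasts. Il6 and Il1b were below 1 FPKM in all 6 untreated libraries, passed the filter only through LPS-treated libraries and had to rise. Of 7 osteoclast markers all 7 were higher in OC_NT than in MA_NT, but Calcr, Dcstamp, Ocstamp and Oscar were below 1 FPKM in all 6 macrophage libraries, passed the filter only through osteoclasts and had to differ. Itgb3 reached 1 FPKM in 2 of 6 macrophage libraries and also passed only through osteoclasts. With LPS 6 of the 7 were higher in osteoclasts and Tnfrsf11a was lower, at 50.6 against 63.0 FPKM. Their summed level was 1620 to 1633 FPKM in OC_NT, 1588 to 1669 in OC_LPS, 41.2 to 42.3 in MA_NT and 64.1 to 69.6 in MA_LPS. Calcr was at 0 in all 3 MA_NT libraries. The 7 macrophage markers summed to 13320 to 13390 FPKM in MA_NT, 15120 to 15610 in MA_LPS, 2847 to 3300 in OC_NT and 2728 to 3565 in OC_LPS, and Lyz2 alone stood at 927 to 1843 FPKM in the osteoclast libraries. Stromal and osteoblast markers summed to 25.8 to 35.6 FPKM in macrophage libraries and 0.624 to 1.42 in osteoclast libraries. Neutrophil markers summed to 4.25 to 12.3 FPKM in macrophage libraries and 0.247 to 1.76 in osteoclast libraries, and endothelial markers to 2.57 to 5.06 and 0.172 to 1.55. Markers of erythroid, B, T, mast and dendritic cells each summed to at most 1.46 FPKM in every library. Mitochondrial genes took 1.27% to 1.62% of the reads of macrophage libraries and 5.16% to 6.18% of those of osteoclast libraries. The part of these markers and of the mitochondrial share in the differences between cell types was not tested.

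All 8 genes were higher in osteoclasts than in macrophages, without LPS and with it. Without LPS their median log2 difference was 5.42, against 0 for all tested genes. They were called higher for 8 of 8, where limma called 77.8% of all tested genes. Those called higher were 38.8% of all tested genes. With LPS the median was 5.04, against -0.02 for all tested genes, and again 8 of 8 were called higher, where 83.9% of all tested genes were called and 40.9% as higher. No osteoclast library overlapped a macrophage library for any of the 8, which held for 81.4% of all tested genes without LPS and for 83.6% with it. Car2 reached 1 FPKM in none of the 6 macrophage libraries, so it passed the filter only through the osteoclast libraries and had to differ. The same untreated libraries enter the comparison of cell types without LPS and the LPS effects, so these results are not independent. Because whole cultures were sequenced, fewer cells of a type and less RNA per cell cannot be told apart.

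**Figure D1:**
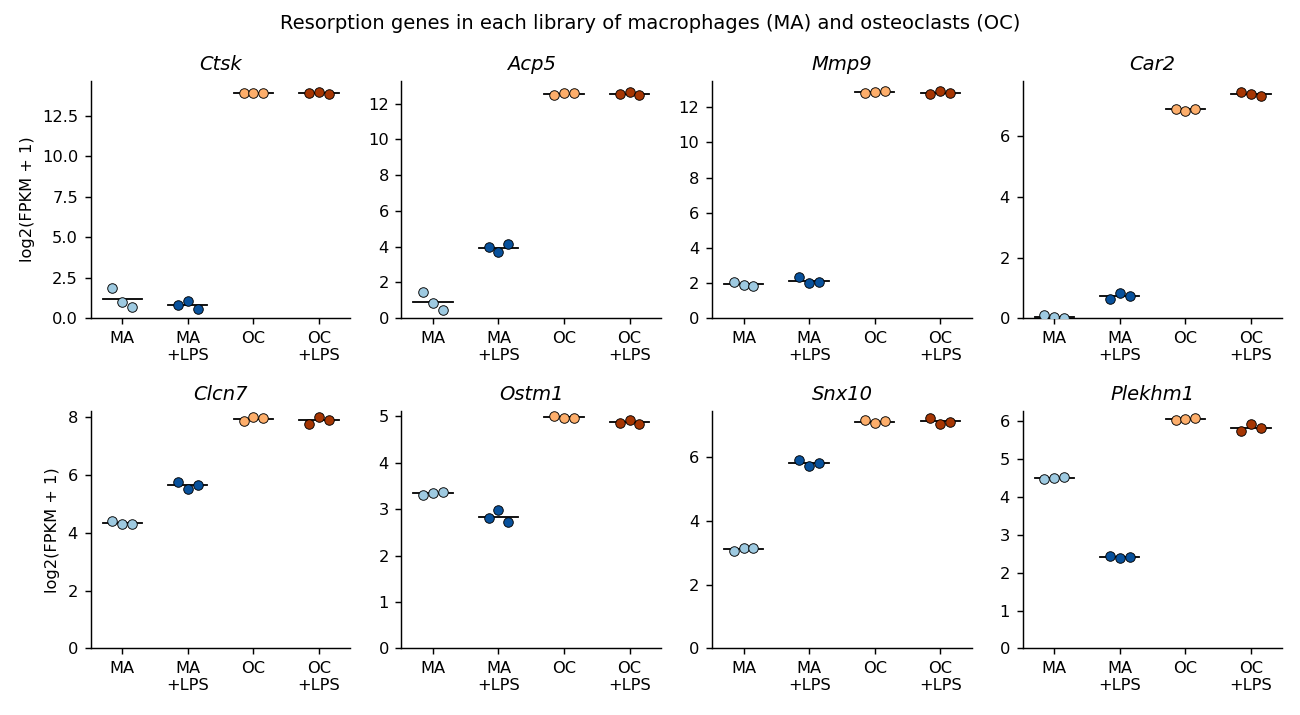
Each panel plots log2(FPKM + 1) of 1 gene in the 12 libraries (points) with the group mean (line), for macrophages (MA) and osteoclasts (OC) without and with LPS; the vertical axis starts at 0. The osteoclast points lie above the macrophage points in every panel, and the LPS groups of macrophages separate most for Acp5, Snx10 and Plekhm1.

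The enzyme genes Ctsk, Acp5 and Mmp9 were among the highest of all genes in osteoclasts and at most at 3.15 FPKM in untreated macrophages. In OC_NT, Ctsk ranked 2nd, Mmp9 4th and Acp5 7th of all genes by mean FPKM. In OC_LPS they ranked 3rd, 5th and 7th. Together they made up 7.47% to 8.60% of the summed FPKM of an osteoclast library, and at most 0.00498% of that of a macrophage library. Ctsk alone gave 4.11% to 4.59% of the osteoclast sum.

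Ctsk (ENSMUSG00000028111, chr3:95499256-95509362) stood at 15204, 15863 and 15556 FPKM in OC_NT and at 15534, 16279 and 14763 in OC_LPS. In MA_NT it stood at 2.65, 1.01 and 0.624 FPKM, from 93, 36 and 21 reads, and in MA_LPS at 0.725, 1.06 and 0.471, from 14, 24 and 10 reads. The 2 osteoclast groups overlapped, and the 2 macrophage groups overlapped. MA_NT replicate 1 was the highest macrophage library for Ctsk. Ctsk was 12.73 higher on the log2 scale in OC_NT than in MA_NT (SE 0.23, limma adjusted p = 2.83e-13). LPS gave a log2 difference of -0.40 in macrophages (SE 0.23, 95% interval -0.89 to 0.10, limma adjusted p = 0.139), and of -0.0024 in osteoclasts (95% interval -0.50 to 0.50, limma adjusted p = 0.998). The macrophage value depended on the library and the scaling: it was -0.06 without MA_NT 1, and it was called at -0.64 without MA_NT 3 (limma adjusted p = 0.0168) and at -1.04 with TPM scaling (adjusted p = 0.0106).

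Acp5 (ENSMUSG00000001348, chr9:22126727-22135711, minus strand) was at 1.72, 0.775 and 0.354 FPKM in MA_NT and at 14.9, 12.1 and 16.7 in MA_LPS. Every MA_LPS library was above every MA_NT library, in a comparison where 74.0% of all tested genes did not overlap. The reads were 81, 37 and 16 without LPS and 387, 367 and 476 with it. The ratio of mean FPKM was 15.3, or 25.8 without MA_NT 1. The log2 difference was 3.05 (SE 0.19, limma adjusted p = 3.1e-08), and 4.17 by voom on the recovered reads. In osteoclasts Acp5 was at 5773, 6132 and 6060 FPKM without LPS and at 5852, 6425 and 5748 with it. The 2 osteoclast groups overlapped, with a log2 difference of 0.0035 (SE 0.19, 95% interval -0.42 to 0.43, limma adjusted p = 0.996). MA_LPS held 0.243% of the mean OC_NT level. Of its exon bases 6.75% overlap the opposite-strand gene 6530413G14Rik, which averaged 0.521 FPKM in osteoclasts and 0.00379 in macrophages; whether counting used strand is not stated.

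Mmp9 (ENSMUSG00000017737, chr2:164940780-164955850) was at 7127, 7563 and 7690 FPKM in OC_NT and at 6831, 7806 and 7042 in OC_LPS. In macrophages it was at 3.15, 2.67 and 2.59 FPKM without LPS and at 4.05, 2.99 and 3.22 with it. Both pairs of groups overlapped. In macrophages the log2 difference with LPS was 0.21 (SE 0.09, limma adjusted p = 0.0443), just past the threshold. It was -0.33 when the values were rescaled to TPM (limma adjusted p = 0.00872), and leaving out 1 library ended the call for 8 of 12 libraries (MA_NT 2 and 3, MA_LPS 1 and 3, OC_NT 1, 2 and 3, and OC_LPS 3), with limma adjusted p from 0.0508 to 0.196. In osteoclasts the log2 difference was -0.048 (95% interval -0.24 to 0.14, limma adjusted p = 0.762). Against MA_NT, Mmp9 was 10.94 higher on the log2 scale in OC_NT (SE 0.09, limma adjusted p = 3.44e-16).

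The proportions between the enzymes were nearly the same in both osteoclast groups. Ctsk FPKM was 2.60 ± 0.034 times Acp5 FPKM in OC_NT (SD, n = 3) and 2.59 ± 0.062 in OC_LPS. Ctsk was 2.09 ± 0.056 times Mmp9 in OC_NT and 2.15 ± 0.106 in OC_LPS. In macrophages the Ctsk to Acp5 ratio was 1.54 ± 0.228 without LPS and 0.0549 ± 0.0303 with it. By root mean square difference of centred log2(FPKM + 1) over the 12 libraries, the genes closest to Ctsk were Mmp9 (1.11), Acp5 (1.87) and Mt3 (2.17). For Mmp9 they were Acp5 (1.08), Mt3 (1.09) and Ctsk (1.11), and for Acp5 they were Mmp9, Mt3 and Dcstamp.

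Car2, the anhydrase that supplies the protons, was the 1 gene of the 8 called higher with LPS in osteoclasts. Of all tested genes 11.1% were called higher there, so the count is near the background. Car2 (ENSMUSG00000027562, chr3:14886273-14900770) was at 118.8, 113.9 and 119.1 FPKM in OC_NT and at 174.0, 167.6 and 158.3 in OC_LPS. No library of either group overlapped the other, as for 34.0% of all tested genes. The ratio of means was 1.42 and the log2 difference 0.50 (SE 0.06, 95% interval 0.38 to 0.62, limma adjusted p = 5.29e-05). With pseudocounts of 0.1 and 0.01 the difference was 0.51 and the call was lost (limma adjusted p = 0.0567 and 0.588). In macrophages Car2 was at 0.0713, 0.0176 and 0 FPKM without LPS, from 4, 1 and 0 reads, and at 0.550, 0.775 and 0.676 with LPS, from 17, 28 and 23 reads. The 3 MA_LPS libraries summed to 68 reads and the 3 MA_NT libraries to 5, a ratio of 22.5 after scaling (exact 95% interval 9.17 to 71.4, counting error only). Without MA_NT 1 the ratio of mean FPKM was 75.9, against a group with 1 read. The log2 difference was 0.69 (SE 0.06, limma adjusted p = 2.75e-07) and 4.65 by voom on the recovered reads, and MA_LPS stayed at 0.569% of the mean OC_NT level. Of the 7 osteoclast markers, LPS raised Ocstamp and Tnfrsf11a in macrophages and lowered Dcstamp, Itgb3 and Atp6v0d2, with a median log2 difference of 0.0087. Ocstamp was near the floor there, at a mean of 0.162 FPKM in MA_NT and 0.256 in MA_LPS. Its reads were 14, 16 and 11 without LPS and 11, 12 and 16 with it, so its rise depends on the library scaling. A macrophage library summed to 255852 to 261584 FPKM without LPS and to 399796 to 408994 with it. The higher sum of the 7 markers in MA_LPS came from Tnfrsf11a, at 36.1 FPKM in MA_NT and 63.0 in MA_LPS. The part of the markers in the rise of Car2 and Acp5 was not tested. The genes closest to Car2 over the 12 libraries were Ocstamp (0.276), Scin (0.308) and Myo1d (0.347).

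Clcn7 and Ostm1 encode the partners of 1 chloride transporter, and in macrophages LPS moved them in opposite directions. Clcn7 (ENSMUSG00000036636, chr17:25133391-25162104) was at 20.3, 18.8 and 18.9 FPKM in MA_NT and at 53.3, 45.3 and 49.6 in MA_LPS. Ostm1 (ENSMUSG00000038280, chr10:42583822-42702459) was at 8.88, 9.21 and 9.38 FPKM in MA_NT and at 6.00, 6.87 and 5.62 in MA_LPS. For both genes no MA_LPS library overlapped an MA_NT library, as for 74.0% of all tested genes. The log2 difference was 1.31 for Clcn7 (SE 0.07, limma adjusted p = 5.76e-09), a ratio of means of 2.56, and 0.70 with TPM scaling. It was -0.51 for Ostm1 (SE 0.06, limma adjusted p = 6.28e-06), a ratio of means of 0.673, and -1.17 with TPM scaling. In the 4 groups, Ostm1 FPKM per Clcn7 FPKM was 0.475 ± 0.032 (SD, n = 3) in MA_NT, 0.126 ± 0.022 in MA_LPS, 0.123 ± 0.007 in OC_NT and 0.119 ± 0.007 in OC_LPS. Single MA_LPS libraries were at 0.1125, 0.1516 and 0.1135, around the osteoclast range of 0.1135 to 0.1311.

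In osteoclasts Clcn7 was at 236.1, 258.0 and 249.8 FPKM without LPS and at 219.7, 260.0 and 238.0 with it. Ostm1 was at 31.0, 30.5 and 30.3 FPKM without LPS and at 27.9, 29.5 and 27.7 with it. The Clcn7 groups overlapped, and every OC_LPS library of Ostm1 was below every OC_NT library, as was the case in either direction for 34.0% of all tested genes. The log2 difference with LPS was -0.054 for Clcn7 (95% interval -0.21 to 0.10, limma adjusted p = 0.659) and -0.10 for Ostm1 (95% interval -0.23 to 0.02, limma adjusted p = 0.248). Against MA_NT, mean FPKM in OC_NT was 12.8 times as high for Clcn7 (log2 difference 3.61, SE 0.07, limma adjusted p = 5.39e-13) and 3.34 times as high for Ostm1 (1.64, SE 0.06, limma adjusted p = 7.59e-11). The genes closest to Clcn7 were Ext1 (0.121), Layn (0.246) and Tcirg1 (0.250), and those closest to Ostm1 were Cd99l2 (0.0670), Crot (0.0699) and Cmas (0.0782). Ostm1 shares 5.69% of its exon bases with the opposite-strand gene Gm15200, which was at 0 in both cell types.

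**Figure D2:**
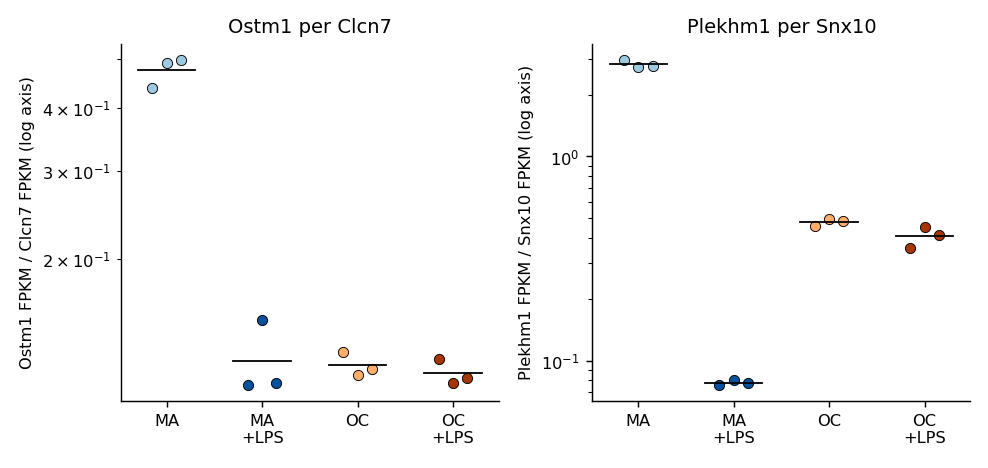
Points are the FPKM of Ostm1 per FPKM of Clcn7 (left) and of Plekhm1 per Snx10 (right) in each library, with the group mean as a line, on log axes; MA is macrophages and OC osteoclasts. Untreated macrophages lie above every other group in both panels, at 0.475 ± 0.032 and 2.82 ± 0.12 (SD, n = 3).

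Snx10 and Plekhm1, the 2 genes of vesicle traffic, also moved in opposite directions with LPS in macrophages. Snx10 (ENSMUSG00000038301, chr6:51523901-51590679) was at 7.21, 7.78 and 7.89 FPKM in MA_NT and at 58.5, 51.9 and 55.5 in MA_LPS. Plekhm1 (ENSMUSG00000034247, chr11:103364275-103412687, minus strand) was at 21.3, 21.4 and 21.8 FPKM in MA_NT and at 4.44, 4.18 and 4.32 in MA_LPS. All MA_LPS libraries were above all MA_NT libraries for Snx10 and below them for Plekhm1, where 74.0% of all tested genes did not overlap. The log2 difference was 2.71 for Snx10 (SE 0.06, limma adjusted p = 1.75e-12), a ratio of means of 7.25. For Plekhm1 it was -2.08 (SE 0.04, limma adjusted p = 1.14e-12), a ratio of means of 0.200. Plekhm1 FPKM per Snx10 FPKM was 2.82 ± 0.12 in MA_NT (SD, n = 3), 0.0780 ± 0.0023 in MA_LPS, 0.478 ± 0.020 in OC_NT and 0.406 ± 0.048 in OC_LPS. With LPS the macrophage mean was 40.5% of that of OC_NT for Snx10, up from 5.59%, and 6.61% for Plekhm1, down from 33.0%.

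In osteoclasts Plekhm1 was at 64.3, 65.1 and 66.3 FPKM without LPS and at 52.7, 59.0 and 55.7 with it. It was the 1 gene of the 8 called lower with LPS there, where 6.59% of all tested genes were called lower. Plekhm1 fell by 0.22 on the log2 scale (SE 0.04, 95% interval -0.32 to -0.13, limma adjusted p = 0.00323), a ratio of means of 0.856. The macrophage marker Adgre1 was at 37.0, 31.2 and 31.3 FPKM in the same OC_NT libraries and at 73.1, 42.5 and 70.9 in OC_LPS; it was the 1 of 7 macrophage markers called with LPS in osteoclasts, and the median log2 difference of the 7 was -0.03. Mean FPKM without and with LPS was 310.2 and 292.8 for Csf1r, 1402 and 1374 for Cd68 and 9.60 and 8.50 for Itgam. It was 0.486 and 0.256 for Cx3cr1, 1327 and 1453 for Lyz2 and 2.57 and 2.79 for Mrc1, and limma called none of these 6. Of the 7 osteoclast markers, Calcr was called higher with LPS in osteoclasts, with mean FPKM of 21.2 without LPS and 27.0 with it. Tnfrsf11a was called lower (56.4 and 50.6), and the other 5 were not called. The endothelial marker Kdr was called higher (0.222 and 1.08). The part of all these markers in the fall of Plekhm1 and the rise of Car2 in osteoclasts was not tested. OC_LPS replicate 2, with the lowest Adgre1 of its group, had the highest value of its group for Plekhm1, Clcn7, Ostm1, Ctsk, Acp5 and Mmp9, the lowest for Snx10 and the middle one for Car2. Snx10 was at 141.0, 131.4 and 137.2 FPKM without LPS and at 148.3, 130.9 and 134.9 with it, and the groups overlapped (log2 difference 0.014, 95% interval -0.11 to 0.14, limma adjusted p = 0.896). Against MA_NT, mean FPKM in OC_NT was 17.9 times as high for Snx10 (log2 difference 3.99, SE 0.06, limma adjusted p = 4.98e-14) and 3.03 times as high for Plekhm1 (1.56, SE 0.04, limma adjusted p = 8.98e-12). The genes closest to Snx10 were Insl6 (0.298), Oaf (0.387) and Ppargc1b (0.394), and those closest to Plekhm1 were Mfsd12 (0.134), Mknk2 (0.175) and Bcar3 (0.221). Plekhm1 shares 5.60% of its exon bases with the opposite-strand gene Arhgap27os1, which averaged 0.276 FPKM in osteoclasts and 0.0361 in macrophages.

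**Figure D3:**
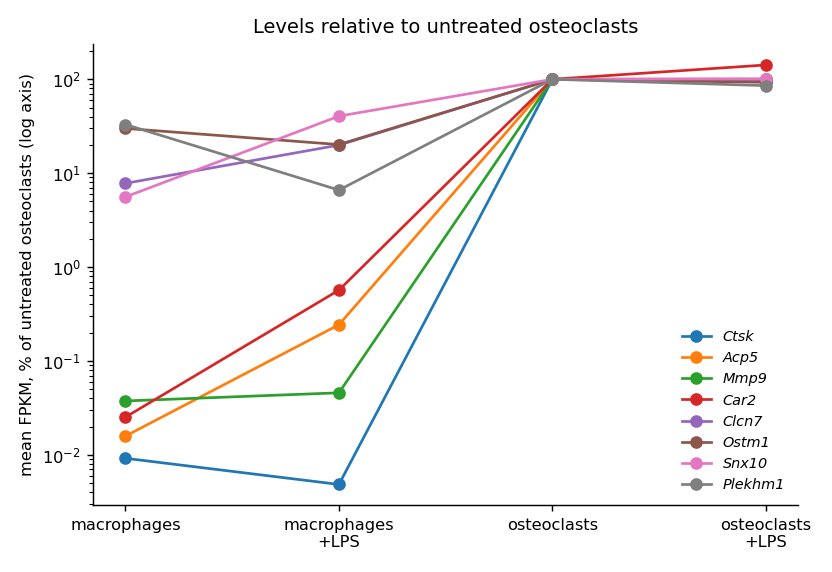
Points are the group mean FPKM of each gene as a percent of its mean in untreated osteoclasts (set at 100%, log axis), joined by lines across the 4 groups. Macrophage levels of Snx10 rose from 5.59% to 40.5% with LPS and those of Plekhm1 fell from 33.0% to 6.61%, while Ctsk stayed below 0.01%.

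With LPS in both cell types, the order of the gaps between osteoclasts and macrophages changed. The widest gaps were then those of Ctsk and Mmp9, 13.13 and 10.68 higher on the log2 scale in OC_LPS than in MA_LPS (SE 0.23 and 0.09, limma adjusted p = 1.72e-13 and 3.89e-16). Acp5 was 8.60 higher in OC_LPS (SE 0.19, limma adjusted p = 1.34e-12), against 11.64 without LPS. Car2 was 6.65 higher (SE 0.06, limma adjusted p = 4.19e-16), and its reads summed to 21595 in OC_LPS and 68 in MA_LPS. Snx10 had the smallest gap with LPS, a ratio of mean FPKM of 2.49 (log2 difference 1.30, SE 0.06, limma adjusted p = 4.7e-10), after 17.9 without it. Clcn7 was 4.84 times as high (log2 difference 2.25, limma adjusted p = 1.84e-11), after 12.8 without LPS. The gap of the genes that fell in macrophages was wider with LPS: Plekhm1 was 13.0 times as high in OC_LPS as in MA_LPS (3.42, limma adjusted p = 1.46e-14), after 3.03, and Ostm1 was 4.60 times as high (2.04, adjusted p = 7.84e-12), after 3.34. These comparisons share libraries with those above, and the change of each gap is the interaction given next.

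Within the osteoclast groups the 3 libraries differed little. The coefficient of variation of FPKM in OC_NT was 2.12% for Ctsk, 3.17% for Acp5, 3.95% for Mmp9, 2.47% for Car2, 4.45% for Clcn7 and 3.54% for Snx10. In OC_LPS it was higher for each of these 6 genes, at 4.88%, 6.06%, 7.10%, 4.74%, 8.44% and 6.59%. In MA_NT it was 75.3% for Ctsk and 73.7% for Acp5, at levels of at most 93 reads a library, and 4.26% for Clcn7. By mean FPKM in OC_NT, Clcn7 ranked 159th, Snx10 320th, Car2 361st, Plekhm1 684th and Ostm1 1436th of all genes, and with LPS Car2 stood at 281st and Plekhm1 at 844th.

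Counted together, LPS called 7 of the 8 genes in macrophages, 5 higher and 2 lower, where 69.9% of all tested genes were called (36.8% higher and 33.1% lower), so the count is near the background. With TPM scaling all 8 were called, 4 higher and 4 lower, with Ctsk and Mmp9 among the lower, where 15.9% of all tested genes were higher and 70.0% lower. The median log2 difference of the 8 was 0.45, against 0.02 for all tested genes. In osteoclasts LPS called 2 of the 8 genes, where 17.7% of all tested genes were called (11.1% higher and 6.59% lower). The median of the 8 was -0.02 there, against 0.01 for all tested genes. The difference between the LPS effects in the cell types was tested as an interaction, osteoclast effect minus macrophage effect, and called 5 of 8 genes, 2 above 0 and 3 below, where 56.6% of all tested genes were called (26.6% above 0 and 30.0% below). It was -3.04 for Acp5 (SE 0.27, limma adjusted p = 1.6e-06), -1.36 for Clcn7 (SE 0.10, adjusted p = 2.36e-07) and -2.69 for Snx10 (SE 0.08, adjusted p = 1.85e-10). It was 0.40 for Ostm1 (SE 0.08, limma adjusted p = 0.00108) and 1.86 for Plekhm1 (SE 0.06, adjusted p = 2.85e-10). With TPM scaling the interaction was 1.00 for Ostm1 and -0.82 for Clcn7. It was not called for Ctsk (0.39, limma adjusted p = 0.322), Mmp9 (-0.26, adjusted p = 0.0901) or Car2 (-0.19, adjusted p = 0.0573). The Car2 value depended on the setting: it was called with pseudocounts of 0.1 (-2.09) and 0.01 (-4.07), with voom on the recovered reads (-4.14), with TPM and quantile scaling (-0.82 and -0.32), and without MA_NT 1, MA_LPS 1 or OC_LPS 1 (-0.22, -0.24 and -0.22), with limma adjusted p from 1.39e-05 to 0.0438. Mmp9 was called with quantile scaling (-0.34) and without MA_NT 1, MA_LPS 2 or OC_LPS 2 (-0.32, -0.33 and -0.32), with limma adjusted p from 0.0299 to 0.0488, and was 0.21 and not called with TPM scaling.

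**Figure D4:**
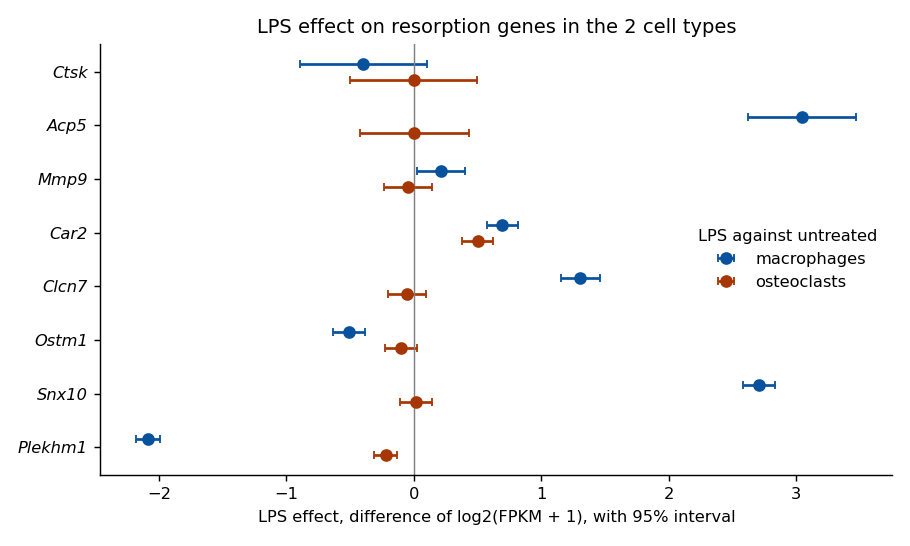
Points are the difference of log2(FPKM + 1) between LPS-treated and untreated libraries for each gene in macrophages (blue) and osteoclasts (brown), with bars for the limma 95% interval. The macrophage points of Acp5, Clcn7 and Snx10 lie right of 0 and those of Ostm1 and Plekhm1 left of it, while in osteoclasts the intervals of Car2 and Plekhm1 alone exclude 0.

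Other genes of acid secretion are given as context, and their counts are to be read beside the shares of all tested genes. Those shares were 77.8% called between untreated cell types (38.8% higher), 69.9% with LPS in macrophages (36.8% higher and 33.1% lower) and 17.7% with LPS in osteoclasts (11.1% and 6.59%). Of 23 V-ATPase subunit genes 18 were tested, and 17 were higher and 1 lower in OC_NT than in MA_NT, with a median log2 difference of 2.56. Tcirg1, the pump subunit of the osteoclast ruffled border, was at 68.7 ± 3.4 FPKM in MA_NT, 155.5 ± 12.8 in MA_LPS, 588.7 ± 12.9 in OC_NT and 549.9 ± 36.8 in OC_LPS (SD, n = 3). Its log2 difference with LPS was 1.17 in macrophages (SE 0.06, limma adjusted p = 7.25e-09) and -0.10 in osteoclasts (adjusted p = 0.322), beside 1.31 and -0.054 for Clcn7. With TPM and quantile scaling the Tcirg1 value in macrophages was 0.53 and 0.36, and with quantile scaling that in osteoclasts was -0.21 and called (limma adjusted p = 0.0486). The lower subunit was Atp6v0a1 (-2.89, limma adjusted p = 2.55e-12), and Atp6v0d2 showed the widest gap among named subunits (7.36, adjusted p = 3.44e-16). With LPS in macrophages 10 V-ATPase genes rose and 3 fell, but with TPM or quantile scaling 2 rose and 14 fell. With TPM scaling 15.9% of all tested genes rose and 70.0% fell, and with quantile scaling 26.9% rose and 45.8% fell. In osteoclasts 1 V-ATPase gene rose with LPS; with quantile scaling 4 fell and with voom 4 rose, where 13.4% of all tested genes fell and 12.9% rose.

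Among 8 other CLC family genes, 4 were tested. Clcn4 was higher in OC_NT than in MA_NT (0.47), and TPM scaling ended its call (limma adjusted p = 0.0968). Clcn5 was lower (-0.85, and -1.34 with TPM scaling). Clcn6 was lower too, at -0.41, and at -0.87 to -0.29 over the alternatives that kept all libraries. Among 21 other anhydrases and exchangers 7 were tested, 4 higher and 2 lower in OC_NT, of which Slc4a3 passed the filter only through osteoclasts and Car5b only through macrophages and had to differ. Slc4a2, which exports bicarbonate, was 3.69 higher on the log2 scale (limma adjusted p = 2.81e-14). Car13, another cytosolic anhydrase, was at 7.76 ± 0.19 FPKM in MA_NT, 102.9 ± 3.8 in MA_LPS, 12.4 ± 0.33 in OC_NT and 19.0 ± 0.34 in OC_LPS. It rose with LPS in macrophages by 3.57 (limma adjusted p = 2.2e-14) and in osteoclasts by 0.58 (adjusted p = 6.86e-07), and Car2 rose in both cell types too. Of 12 inhibitors of the enzymes 6 were tested, 4 higher and 2 lower in OC_NT, the lower being Timp1 and Timp3. Timp1, an inhibitor of Mmp9, was at 12.4 ± 2.2 FPKM in MA_NT and 0.209 ± 0.19 in OC_NT (SD, n = 3); it reached 1 FPKM in 1 of 6 osteoclast libraries, so it passed the filter only through macrophages and had to be lower, as did Timp3, which reached 1 FPKM in 0 of 6. Timp1 rose with LPS by 2.00 in macrophages (limma adjusted p = 1.1e-06) and by 0.71 in osteoclasts (adjusted p = 0.0208), or 1.22 with TPM scaling. The osteoclast call was lost with no filter, with only the groups compared, with voom, and without OC_NT 2, OC_NT 3, OC_LPS 1 or OC_LPS 3 (limma adjusted p from 0.0506 to 0.0832). Of 16 lysosome transport genes 14 were tested, 6 higher and 6 lower in OC_NT, near the share of all tested genes. With LPS in macrophages 4 rose and 9 fell, and with TPM scaling 0 rose and 14 fell, where 70.0% of all tested genes fell. In osteoclasts 0 rose and 4 fell, and 10 fell with quantile scaling and 1 with only the groups compared.

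Among 16 transcription factors known to act on these genes, 10 rose and 3 fell with LPS in macrophages, and 7 rose and 1 fell in osteoclasts. Of all tested genes, 36.8% rose and 33.1% fell with LPS in macrophages, and 11.1% and 6.59% in osteoclasts. With TPM scaling the splits of the 16 were 9 and 6, and 6 and 3, beside 15.9% and 70.0%, and 8.29% and 10.8%, of all tested genes. Nfatc1, the main osteoclast transcription factor, stood at 7.04 ± 0.081 FPKM in MA_NT, 4.66 ± 0.080 in MA_LPS, 113.6 ± 0.12 in OC_NT and 133.5 ± 7.1 in OC_LPS (SD, n = 3). It fell with LPS in macrophages (log2 difference -0.51, limma adjusted p = 1.91e-07, and -1.17 with TPM scaling) and rose in osteoclasts (0.23, adjusted p = 0.00148), where TPM and quantile scaling ended the call with adjusted p of 0.0551 and 0.103. Mitf rose with LPS in both cell types, by 2.26 in macrophages (limma adjusted p = 2.37e-11) and by 0.33 in osteoclasts (adjusted p = 0.00428). Other factors of the list rose more in macrophages. Mean FPKM in MA_NT and MA_LPS was 9.23 and 216.3 for Jdp2, 23.2 and 272.9 for Nfkb2 and 14.1 and 112.6 for Nfkb1. It was 9.56 and 61.5 for Relb and 71.3 and 425.5 for Junb. Tfeb, a regulator of lysosomal genes, fell by 2.49 in macrophages (limma adjusted p = 2.23e-10).

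**Figure D5:**
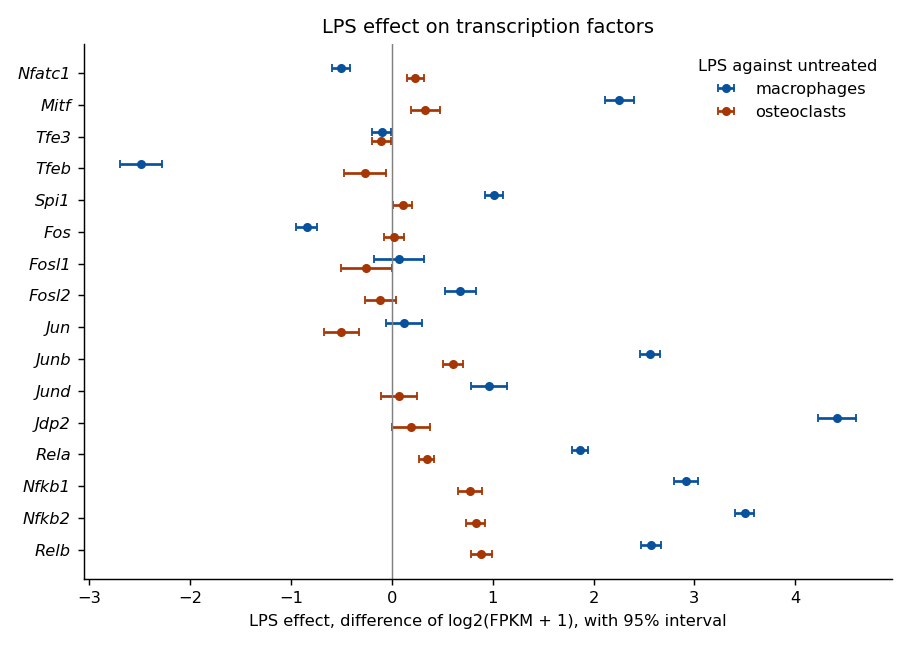
Points are the LPS effect on log2(FPKM + 1) for the 16 transcription factors in macrophages (blue) and osteoclasts (brown), with limma 95% intervals. In macrophages Mitf lies at 2.26 and Tfeb at -2.49; in osteoclasts Nfatc1 lies at 0.23.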

How the data were processed

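Poly-A selection, strand use and normalization are not given in the sources used here; per the labels' protocols, libraries were made from total RNA with a NEBNext Ultra kit. Per the submitters' processing notes, the tools were fastp, STAR, featureCounts and DESeq2, with build mm10. The authors deposited FPKM for 54532 genes. Whole reads (within 0.02) were recovered for 99.7% of the 25854 genes above 0, and 96.69% of those genes had the merged exon length of GENCODE M21 on GRCm38, which is inferred from the values. The library denominators matched median-of-ratios size factors, so values are taken as relative to the typical gene. Column sums were 255852 to 408994.

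Groups came from the sample titles. limma 3.58.1 (R 4.3.3; lmFit, contrasts.fit, eBayes with trend, 2-sided, Benjamini-Hochberg) was fitted to log2(FPKM + 1) of all 12 libraries with 4 group means and a shared spread, for 11335 genes. The 8 genes and the context lists were chosen with earlier results of these data known. Alternatives were pseudocounts of 0.1 and 0.01, no filter, a minimum mean of 5 FPKM, TPM and quantile scaling, only the groups compared, a replicate block, no variance trend, voom on recovered reads, and each library left out. The fits were run on simulated data in which some genes changed with LPS in macrophages alone and the scaling was known. That simulation does not test the choice of scaling or the comparisons of cell types. The list of negative regulators of osteoclast formation is not reported here. Named genes are the 8, members of the context lists, and the 3 genes closest to each of the 8.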

Additional observations from a re-analysis of the deposited data

Results flagged for a closer look

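For 5 of the 8 genes the effect of LPS was not the same in macrophages and osteoclasts by the test of the difference itself (osteoclast effect minus macrophage effect on log2(FPKM + 1), limma over all tested genes). Acp5 differed by -3.04 (limma adjusted p = 1.6e-06), with an effect of 3.05 in macrophages and 0.0035 in osteoclasts. Snx10 differed by -2.69 (limma adjusted p = 1.85e-10), with 2.71 and 0.014. Clcn7 differed by -1.36 (limma adjusted p = 2.36e-07), with 1.31 and -0.054. Plekhm1 differed by 1.86 (limma adjusted p = 2.85e-10), with -2.08 and -0.22, and Ostm1 by 0.40 (adjusted p = 0.00108), with -0.51 and -0.10. Of all tested genes 56.6% were called for this difference.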

How the results depend on the processing

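The counts of genes called among the 8 were 7 with LPS in macrophages, 2 with LPS in osteoclasts, 8 and 8 between the cell types and 5 for the difference of LPS effects. With all libraries kept, 5 of the 10 alternatives ended the call of Mmp9 with LPS in macrophages (limma adjusted p up to 0.162), and 1 reversed it. In osteoclasts the count was 1 with a pseudocount of 0.1 and 1 with a pseudocount of 0.01, because Car2 lost its call (0.51, limma adjusted p = 0.0567, and adjusted p = 0.588). With 1 library left out the counts were 6 to 7, 2 to 2, 8 to 8, 8 to 8 and 5 to 7. Some directions turned. Rescaled to TPM, Mmp9 turned from a called 0.21 to a called -0.33 with LPS in macrophages (limma adjusted p = 0.0443 and 0.00872); it was at 0.21 for the difference of effects, and with LPS in osteoclasts Acp5 was at -0.067 and Snx10 at -0.056. With quantile scaling, Ctsk was at 0.033 and Snx10 at -0.093 with LPS in osteoclasts. With 1 library left out, the osteoclast LPS effect ranged from -0.037 to 0.033 for Ctsk, from -0.046 to 0.035 for Acp5, from -0.12 to 0.0056 for Clcn7 and from -0.038 to 0.051 for Snx10. The cause was not tested. With TPM scaling the median of all genes was -0.55 with LPS in macrophages, against 0.02 before, and -0.38 between untreated cell types, against 0.

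Ostm1 was called lower with LPS in osteoclasts under quantile scaling (-0.19, limma adjusted p = 0.025). Same-numbered libraries had correlations of deviations from -0.07 to 0.10, so the numbers are not taken to pair them; with the replicate number as a block, 6 of the 8 genes were called with LPS in macrophages, Mmp9 being lost (adjusted p = 0.0578), and the counts of the other comparisons were 2, 8, 8 and 5. Read numbers limit Car2 and Ctsk in macrophages, with 0 to 28 and 10 to 93 reads per library.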

Other observations

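Among the 3 MA_NT libraries, replicate 1 was highest for Ctsk, Acp5, Mmp9 and Car2, with 2.65, 1.72, 3.15 and 0.0713 FPKM. It was also highest for Clcn7 (20.3 FPKM) and lowest for Ostm1 (8.88), Snx10 (7.21) and Plekhm1 (21.3). It had the most genes at 1 FPKM or above (10301, against 10128 and 10182). Rubcn, a regulator of autophagy, fell with LPS in macrophages (log2 difference -1.03, limma adjusted p = 2.87e-08, and -1.80 with TPM scaling) and in osteoclasts (-0.29, adjusted p = 0.00881; 0.0530 with only the groups compared). Plekhm2, a lysosomal adaptor related to Plekhm1, fell in both cell types, by 0.56 in macrophages (limma adjusted p = 5.26e-07; -1.22 with TPM and -0.96 with quantile scaling) and by 0.42 in osteoclasts (adjusted p = 7.62e-05).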
